A study of Homo sapiens with 2 samples.

Results

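Aminoacyl-tRNA synthetases are the enzymes that join each amino acid to its tRNA, and their levels were compared between stretched and non-stretched airway epithelial cells. The set holds 34 named genes, of which 19 encode cytosolic enzymes and 15 encode mitochondrial enzymes. Members were taken by name, and a member received a value where the array's annotation assigns a probe set to that gene only. This left 31 genes, 17 cytosolic and 14 mitochondrial, of 19775 genes named in this way on the array. The probe sets of MARS1, QARS1 and TARS2 also list a microRNA gene and were not analysed here.

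Cytosolic and mitochondrial protein synthesis use separate sets of charged tRNAs. Most amino acids have a cytosolic and a mitochondrial synthetase encoded by different nuclear genes, whereas GARS1 and KARS1 each encode both forms. In the cytosol several synthetases are bound together in the multisynthetase complex, and the synthetases as a family fall into the structural classes I and II. Transcription of many cytosolic synthetase genes is known to be raised by ATF4, the transcription factor of the amino acid response, which acts when amino acids run short or when eIF2 is phosphorylated.

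The cells were Calu-3, a human lung adenocarcinoma line used as a model of airway epithelium, grown with serum on flexible plates coated with collagen type I. In the stretched culture a sine wave took the plates from 0.7% to a maximum of 20% stretch, with 2 s of stretch alternating with 2 s of rest, for a labelled time of 18 h. The non-stretched culture carried the same 18 h label without stretch, and the labels name no genetic change or drug in either culture. Each condition was measured on 1 Affymetrix array (n = 1), so no value has a replicate error, no test between conditions was possible, and each difference compares these 2 arrays only. In bulk RNA, a smaller number of expressing cells and less RNA per cell cannot be told apart.

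Values are signal intensities on a linear scale, and each difference is the log2 intensity of the stretched array minus that of the non-stretched array. Intensities below the array's median (28.7 and 28.4) were set to that median, called the floor. A gene is represented by its brightest probe set, and 13453 genes exceeded the floor in at least 1 array. All 31 synthetases with a value exceeded it in both arrays. The median difference of all measured genes was 0.005. The SD of a single probe set's difference, taken from genes with 2 or more probe sets, was 0.36, and 0.23 among brighter probe sets. It covers probe noise but no variation between cultures. Hybridisation spike-ins had a median difference of -0.11. Intensity ratios of 3' to 5' control probe sets were 1.04 (ACTB) and 0.88 (GAPDH) without stretch, and 1.01 and 0.86 with stretch. The epithelial markers EPCAM, CDH1, KRT8, KRT18, KRT19 and CFTR were bright in both arrays, at 2199 or more. CFTR, the chloride channel of airway epithelium, was among them the one that differed most, at 5924 and 2199, 2.69-fold lower, with its 3 probe sets between -1.50 and -1.32. CDH1 was at -0.38, and the other 4 lay between -0.15 and 0.22. The relation of these marker values to the synthetase values was not tested. Of the fibroblast markers 3 of 6 were above the floor in at least 1 array, at 126.0 or less. Of the endothelial markers PECAM1 alone of 3 was above the floor, at 57.7 or less. Of 4 leukocyte markers named on the array CD3E, CD14 and LYZ were above the floor, and LYZ, which airway gland cells also make, was the only bright marker at 1220.5 and 1462. PDGFRB, LUM, CDH5, VWF and PTPRC were below the floor in both arrays.

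Cytosolic synthetases were on balance lower in the stretched array, with values spread from -1.35 to 0.89, while the mitochondrial synthetases centred slightly above 0. All medians and differences here are on the log2 scale. The median difference of the 17 cytosolic genes was -0.50, a level 1.42-fold lower, with 11 genes below 0 and 6 above. Beyond 1 probe-set SD of 0, 10 lay below and 3 above. Of all 13453 measured genes, 3534 lay below and 3673 above by that much. Among all measured genes 49.5% lay below 0 and 50.5% above. Of the cytosolic genes, 3 were at least 2-fold lower (17.6%), against a background of 7.49% of all measured genes. None was at least 2-fold higher, against a background of 7.78%. At 1.5-fold, a threshold added after the values were seen, 8 of 17 were lower (47.1%, background 16.7%) and 2 were higher (11.8%, background 17.9%). The 14 mitochondrial genes had a median difference of 0.26, a level 1.20-fold higher, with 10 genes above 0 and 4 below. Beyond 1 probe-set SD, 5 lay above and 1 below, against 3673 above and 3534 below among all 13453 measured genes. The cytosolic minus the mitochondrial median was -0.76 on the log2 scale, a gap for which 1 array per condition allows no test. The compartments also differed in signal. Without stretch the cytosolic genes ranged from 739.6 (FARSA) to 7426 (KARS1), and the mitochondrial genes from 52.0 (YARS2) to 2454 (IARS2). With the floor at the 75th percentile, 17 cytosolic and 10 mitochondrial genes kept a value, and the gap was -0.65. After loess scaling the gap was -0.78. It was not tested in genes of matched signal.

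**Figure D1:**
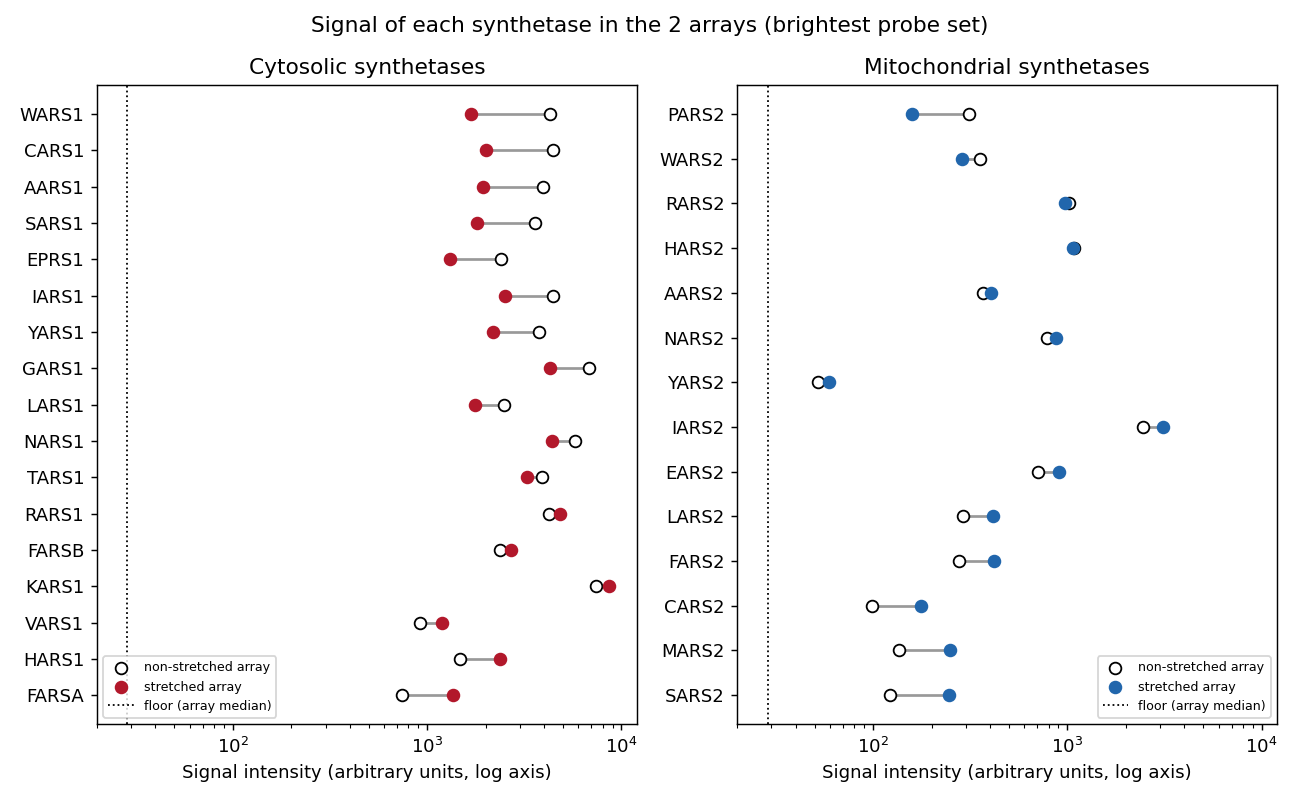
Signal intensity of the brightest probe set of each synthetase in the non-stretched array (open circles) and in the stretched array (filled circles), on a log axis, for the 17 cytosolic genes (left) and the 14 mitochondrial genes (right), ordered by their difference. The dotted line is the floor of the non-stretched array at 28.7. From WARS1 down to TARS1 the stretched signal is the lower one, and for 10 of the 14 mitochondrial genes it is the higher one, mostly by little.

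The cytosolic genes were grouped by what is generally known of ATF4. That grouping counts AARS1, CARS1, EPRS1, GARS1, IARS1, LARS1, NARS1, SARS1, TARS1, VARS1, WARS1 and YARS1 among the widely listed ATF4 targets, together with MARS1, and it was made with results on other ATF4 targets in these arrays known. Of the 12 with a value, 11 lay below 0, and their median was -0.80, a level 1.74-fold lower. The exception was VARS1. The 5 others, FARSA, FARSB, HARS1, KARS1 and RARS1, all lay above 0, with a median of 0.22 and a range from 0.18 to 0.89. The sign of each of these 17 genes was the same under every alternative scaling, floor and choice of probe sets that gave it a value, although LARS1 and VARS1 each have a dim probe set of the opposite sign.

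Promoter stretches are shown for the genes in which the letters that ATF4 is known to bind could be read. The core of the composite element bound by ATF4 with a C/EBP partner is TGATGNAA, where N is any base. It was searched on both strands in windows from 250 bases before to 50 bases after each start (RefSeq, GRCh38.p14), which were found for 30 of the 34 members. Not in that table were LARS1, VARS1, YARS1 and AARS2. The letters occurred in 7 of 16 cytosolic genes and in 1 of 14 mitochondrial genes, YARS2. Over all 15843 protein-coding genes with a window the share was 3.60%. In 6 of the 7 cytosolic genes the match was TGATGCAA or its reverse complement TTGCATCA, which 0.903% of protein-coding genes carry. Each stretch below is 30 bases on the gene's own strand, 5′ to 3′, with the match in capitals, and CARS1, TARS1 and GARS1 have more than 1 annotated start, of which the matching one is meant.
AARS1, chr16:70289675-70289704, minus strand, 187 bases before the start: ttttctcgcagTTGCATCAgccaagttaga
CARS1, chr11:3057407-3057436, minus strand, across the start: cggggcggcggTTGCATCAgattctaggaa
IARS1, chr9:92293692-92293721, minus strand, 13 bases before the start: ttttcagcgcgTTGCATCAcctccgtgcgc
MARS1, chr12:57488053-57488082, plus strand, across the start: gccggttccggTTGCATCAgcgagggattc
TARS1, chr5:33440956-33440985, plus strand, just after the start: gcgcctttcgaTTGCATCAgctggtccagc
NARS1, chr18:57621804-57621833, minus strand, after the start: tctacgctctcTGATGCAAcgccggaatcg
GARS1, chr7:30594834-30594863, plus strand, 33 bases before the start: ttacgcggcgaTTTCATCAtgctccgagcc

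In 6 of these 7 genes the element read as the reverse complement on the gene's own strand, and in NARS1 as TGATGCAA itself. None of the matches shared a base with a match of the 5 other motifs searched. All 6 matched genes with a value lay below 0, from -1.15 to -0.25, with a median of -0.74. The motifs were chosen after the values were seen. All 6 also belong to the listed ATF4 targets above, so their values are no separate result. The 8 cytosolic genes with a window but no match ranged from -1.35 to 0.89, with a median of 0.18. EPRS1, SARS1 and WARS1 were among the lower genes without these letters in the window. The other motifs searched, also on both strands, were TGACGTNA, the interferon-stimulated response element core, TTCNNNGAA, CACGTG and CCAAT. They occurred in 0, 1, 3, 1 and 7 of the 16 cytosolic genes and in 1, 1, 2, 3 and 9 of the 14 mitochondrial genes. Their shares over all protein-coding genes were 4.62%, 4.16%, 8.98%, 10.9% and 42.1%. The 6 cytosolic genes with CCAAT and a value lay from -1.35 to -0.25, with a median of -0.92. Of these, 5 were genes that also carry the ATF4 letters, and the other was WARS1. The 8 cytosolic genes without CCAAT had a median of 0.18. For TTCNNNGAA the median was -1.15 in the 3 cytosolic genes with it and -0.39 in the 11 without. Among the cytosolic genes with TTCNNNGAA, TARS1 and CARS1 also carry the ATF4 letters, and the other was WARS1. These motif groups share genes, so their medians are not separate results. The relation of any motif to the values was not tested. A match describes letters only and is no evidence that a factor was bound.

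WARS1, the tryptophan enzyme, had the lowest difference of the 31 synthetases with a value. Its intensity was 4302 without stretch and 1687 with stretch, 2.55-fold lower. Its other probe set went from 3565 to 1342, a difference of -1.41, so both probe sets were past the 2-fold line. WARS1 is also known as an interferon-inducible gene, and the window at one of its starts holds the core of the interferon-stimulated response element 55 bases before that start (capitals).
WARS1, chr14:100375383-100375412, minus strand: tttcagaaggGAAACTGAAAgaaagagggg
Of 11 interferon-response genes measured beside it, 8 were at least 2-fold lower (72.7%, background 7.49%) and all 11 lay below 0 (background 49.5%), with a median of -1.91. Their part in the WARS1 value was not tested. The core of the interferon-stimulated response element also occurred in EARS2, which lay above 0 at 0.36. Of all protein-coding genes with a window, 4.16% carry it.

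CARS1, the cysteine enzyme, was 2.21-fold lower, from 4440.1 to 2007. Its probe sets at lower signal differed by -1.61 and -1.43, and a probe set near the floor by -0.07. AARS1, the alanine enzyme, was 2.04-fold lower, from 3951 to 1938, in its only probe set. AARS1 lay just past the 2-fold line. SARS1, the serine enzyme, lay just short of it at -0.99, from 3589 to 1809, although its dimmer probe set was at -1.26. Among all cytosolic probe sets above the floor, 7 of 33 were at least 2-fold lower, against a background of 6.48% of measured probe sets, and none was at least 2-fold higher, against 8.66%.

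A middle band of cytosolic enzymes was lower by 1.5-fold to 2-fold. EPRS1, which charges both glutamate and proline tRNAs from a single fused protein, went from 2403 to 1315.5, with its 3 probe sets between -0.87 and -0.50. IARS1, the isoleucine enzyme, went from 4455 to 2526 and was 1.76-fold lower. YARS1, the tyrosine enzyme, went from 3774 to 2187, with probe sets at -0.79 and -0.62. GARS1, the glycine enzyme of both compartments, went from 6795 to 4273 and was 1.59-fold lower. All 4 lay more than 1 probe-set SD below 0.

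Smaller differences were found for LARS1, NARS1 and TARS1. LARS1, the leucine enzyme that also serves as a leucine sensor for mTORC1, went from 2492 to 1761, a difference of -0.50. Its other probe sets lay at -0.35, -0.09 and 0.07, the last of them dim, so its lower value rests on the 2 brightest probe sets. NARS1, the asparagine enzyme, was at -0.39 and TARS1, the threonine enzyme, at -0.25. The TARS1 value lies within 1 SD of a probe set. Its promoter carries the same 8 letters as those of CARS1 and AARS1, and a relation of the letters to the size of a difference was not tested.

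The cytosolic enzymes that were higher include both subunits of the phenylalanine enzyme. FARSA, the catalytic alpha subunit, went from 739.6 to 1367, 1.85-fold higher, with its 2 probe sets at 0.89 and 0.88. FARSB, the beta subunit, went from 2385 to 2704.5, a difference of 0.18, which lies within 1 SD of a probe set. FARSA and FARSB form an obligate heterotetramer, and their probe sets differed by unequal amounts. HARS1, the histidine enzyme, went from 1485 to 2376, 1.60-fold higher. KARS1, the lysine enzyme of both compartments, was at 0.22, with both probe sets above 0, and RARS1, the arginine enzyme, was at 0.18. VARS1, the valine enzyme that binds elongation factor eEF1, went from 915 to 1199.5, a difference of 0.39, while a dim probe set was at -0.12.

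**Figure D2:**
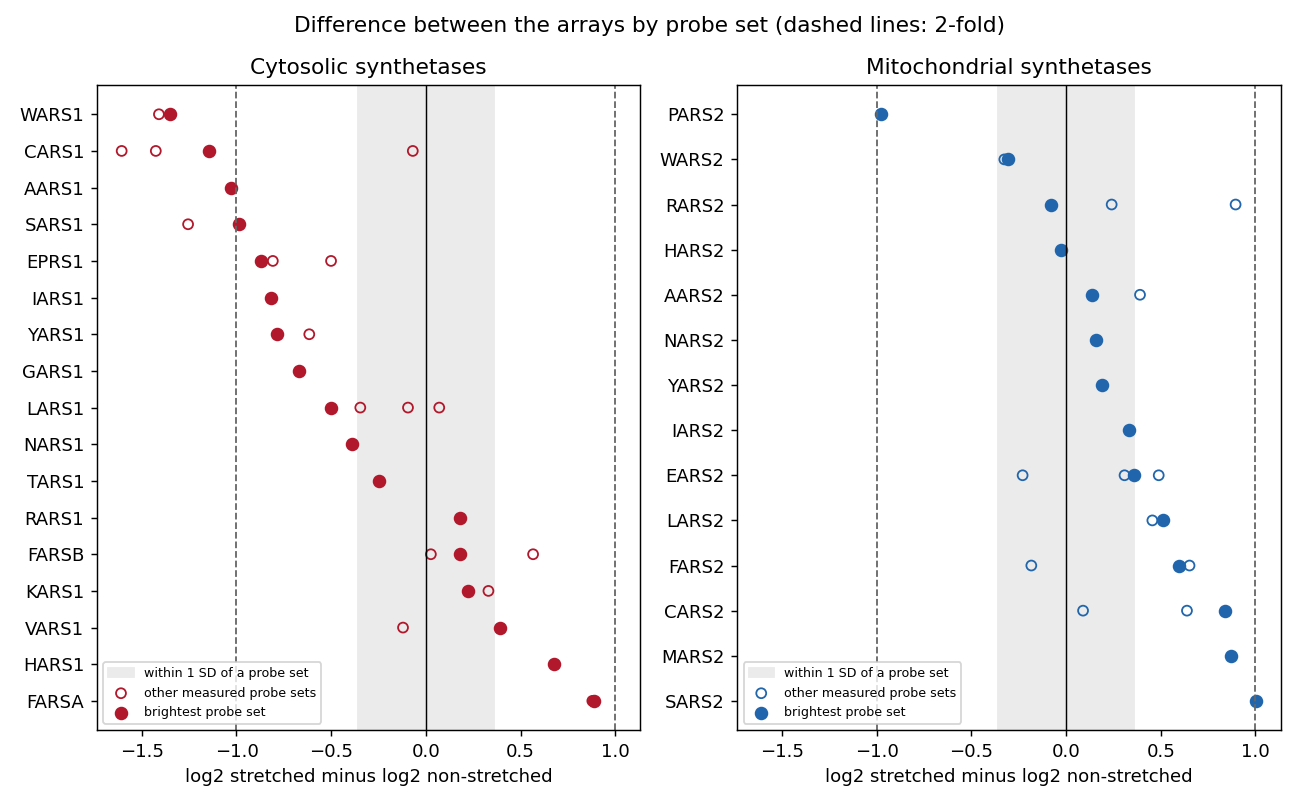
Log2 difference of every measured probe set of the cytosolic (left) and mitochondrial (right) synthetases, with the brightest probe set filled and the others open. The grey band spans 1 SD of a single probe set (0.36) on each side of 0, and dashed lines mark 2-fold. WARS1, CARS1 and AARS1 lie past the lower 2-fold line, and SARS2 lies on the upper one.

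Cytosolic enzymes inside and outside the multisynthetase complex had similar medians. The complex members EPRS1, IARS1, KARS1, LARS1 and RARS1 had a median of -0.50, with 3 of 5 below 0. The 12 cytosolic enzymes outside the complex had a median of -0.53, with 8 below 0. By structural class, the 7 cytosolic class I enzymes had a median of -0.79 and the 9 class II enzymes a median of -0.25. EPRS1, which joins a domain of each class, was left out of that split. The class I and class II values overlapped, from -1.35 to 0.39 and from -1.03 to 0.89.

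Of the 14 mitochondrial synthetases, 8 lay within 1 probe-set SD of 0, as did 6246 of all 13453 measured genes. SARS2, the mitochondrial serine enzyme, was the only one of 14 at least 2-fold higher (7.14%, background 7.78%), which is near the background share. None was at least 2-fold lower (background 7.49%). At 1.5-fold, 4 were higher (28.6%, background 17.9%) and 1 was lower (7.14%, background 16.7%). The 5 that lay above 0 by more than that SD were SARS2, MARS2, CARS2, FARS2 and LARS2, and PARS2 lay below by more.

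SARS2 went from 122 to 245, 2.00-fold higher, just past the line. After centring each array on its 75th percentile the difference was 0.89, short of 2-fold. MARS2, the mitochondrial methionine enzyme, went from 136 to 248, 1.83-fold higher. CARS2, the cysteine enzyme, went from 98.8 to 176, 1.79-fold higher, with its dim probe sets at 0.64 and 0.09. These 3 genes had the highest differences among the mitochondrial members, all at low signal.

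FARS2, the phenylalanine enzyme of the organelle, went from 276 to 418, with probe sets at 0.60 and 0.65 and a dim one at -0.18. LARS2, the leucine enzyme, went from 290.4 to 414, with both probe sets near 0.5 (0.51 and 0.46). EARS2 charges glutamate onto both glutamate and glutamine tRNAs in mitochondria, the latter being amidated afterwards, and went from 704 to 902. Its 3 brighter probe sets were at 0.36, 0.31 and 0.49, and the dim one was at -0.23. IARS2, the isoleucine enzyme, went from 2454 to 3092, a difference of 0.33. YARS2, NARS2 and AARS2 were at 0.19, 0.16 and 0.14, within 1 SD of a probe set, and YARS2 was dim at 52.0 and 59.3.

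PARS2, the mitochondrial proline enzyme, was the lowest mitochondrial member. It went from 314 to 159, 1.97-fold lower, in its only probe set, just short of the 2-fold line. With the floor at the 75th percentile of each array the value became -0.33, because the stretched signal then lay below the floor. WARS2, the tryptophan enzyme, was at -0.31 with its other measured probe set at -0.33. RARS2 and HARS2 were at -0.08 and -0.02. For RARS2, the arginine enzyme, the dimmer probe sets were at 0.24 and 0.89, so that the mean over its probe sets was 0.35 and opposite in sign to the brightest.

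**Figure D3:**
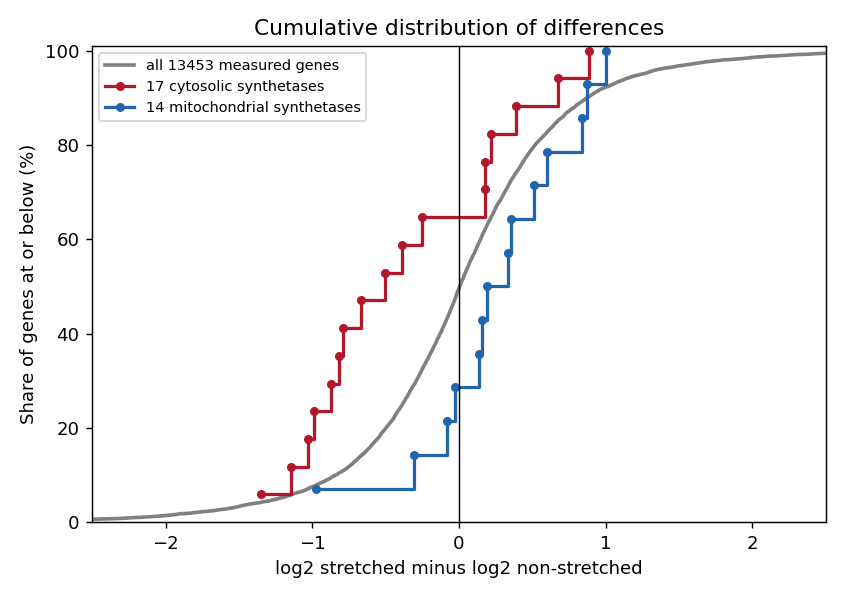
Cumulative share of genes (in %) at or below each log2 difference, for all 13453 measured genes (grey), the 17 cytosolic synthetases (red) and the 14 mitochondrial synthetases (blue). At 0 the cytosolic curve has reached 64.7%, the curve of all genes 49.5% and the mitochondrial curve 28.6%.

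Set side by side for the same amino acid, the cytosolic enzyme was the lower of both in 10 of 14 pairs covering 13 amino acids. In 8 pairs the cytosolic gene lay below 0 and the mitochondrial gene above 0. The widest gaps were in the serine and cysteine enzymes, where the cytosolic minus the mitochondrial difference was -1.99 and -1.98. For glutamate, alanine and isoleucine it was -1.23, -1.16 and -1.15. The tryptophan enzymes both lay below 0, as did the proline enzymes, with EPRS1 at -0.87 and PARS2 at -0.98. In 4 pairs the mitochondrial enzyme was the lower of both, by 0.70 for histidine, 0.29 for the alpha subunit of the phenylalanine enzyme, 0.26 for arginine and 0.11 for proline. Of these 4 gaps, that of histidine alone exceeded 1 SD of a single probe set. A gap between 2 probe sets has a wider spread than that SD. EPRS1 and FARS2 each enter 2 pairs, so the pairs are not independent.

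**Figure D4:**
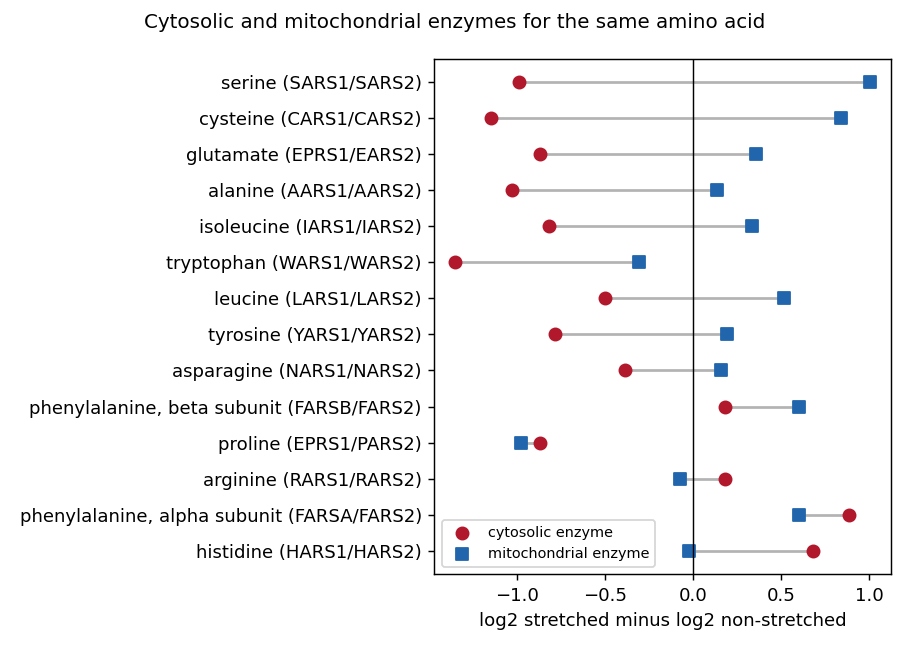
Log2 difference of the cytosolic enzyme (red circles) and of the mitochondrial enzyme (blue squares) for each amino acid with both values, ordered by the gap between them. Serine and cysteine show the widest gaps, and histidine shows the widest gap in the reverse direction, with HARS1 at 0.68 and HARS2 at -0.02.

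The histidine enzymes are a particular case, because HARS1 and HARS2 are neighbours read in opposite directions. Their annotated starts lie 84 bases apart on chromosome 5 in GRCh38.p14, and the interval between them is shown on the plus strand, with HARS1 to its left and HARS2 to its right.
HARS1 and HARS2, chr5:140691371-140691454: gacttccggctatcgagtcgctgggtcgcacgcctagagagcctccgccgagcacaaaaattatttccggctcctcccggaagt
On either side of this interval HARS1 was 1.60-fold higher, and HARS2 was at 1084 and 1065 in the 2 arrays. Each gene had 1 probe set, and the gap of 0.70 between their differences compares those probe sets in these 2 arrays.

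Probe sets of the same synthetase mostly went the same way. Of 17 members with 2 or more measured probe sets, 12 had all of them on the same side of 0, and 14 members had 1 measured probe set. The 5 with mixed signs were LARS1, VARS1, EARS2, FARS2 and RARS2, each spanning more than 0.5.

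Genes around tRNA charging were read from lists chosen for their function. For the complex's scaffold proteins, AIMP1 alone was named by a probe set of 1 gene, and it was at 0.21. Among genes of mitochondrial transamidation and formylation, none of 4 differed 2-fold (background 7.49% lower and 7.78% higher), and their median was 0.10. MTFMT, which formylates the initiator tRNA, was at 0.66. Genes of tRNA maturation and export had a median of 0.60, with 15 of 17 above 0 (88.2%, background 50.5%). Of the 17, 4 were higher by 2-fold or more (23.5%, background 7.78%) and 1 was lower by that much (5.88%, background 7.49%). POP1, a subunit of the tRNA-processing enzyme RNase P, went from 61.2 to 248, and POP7, another subunit, from 1123 to 2607. TSEN54 of the tRNA splicing endonuclease and ELAC2, which trims tRNA 3' ends, were 2.25-fold and 2.19-fold higher. The lower gene was XPOT, the exportin that carries mature tRNA out of the nucleus, and XPOT and ELAC2 were named after their values were seen. XPOT went from 3140 to 1549, a difference of -1.02, and its dimmer probe set was at -0.78.

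RNA polymerase III genes, which serve tRNA transcription, had a median of 0.38, with 14 of 19 above 0 (73.7%, background 50.5%). Past 2-fold, 2 were higher (10.5%, background 7.78%), which is near the background share, and none was lower (background 7.49%). The polymerase subunits POLR3K and POLR3G were 4.20-fold and 4.10-fold higher, and POLR3GL, the alternative form of the latter subunit, was at -0.96. Cytosolic elongation factors, which take up charged tRNA, had a median of -0.03. None of these 5 differed 2-fold (background 7.49% lower and 7.78% higher).

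Mitochondrial translation factors had a median of 0.31, close to that of the mitochondrial synthetases. None of these 8 differed 2-fold (background 7.49% lower and 7.78% higher). Mitochondrial ribosomal proteins, a list added after the first values were seen, had a median of 0.45, with 67 of 75 above 0 (89.3%, background 50.5%). MRPL16, MRPL4 and MRPS6 were the 3 members higher by 2-fold or more, a share of 4% that lies below the background of 7.78%, and no member was lower by that much (background 7.49%).

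Genes of amino acid supply lay mostly below 0. Of 13 enzymes of amino acid synthesis, 12 lay below 0 (92.3%, background 49.5%), and their median was -0.76. CTH, ALDH1L2, ASNS, PSPH and PSAT1 were past 2-fold on the lower side (38.5%, background 7.49%), and none was on the higher side (background 7.78%). The 3 measured probe sets of PSPH ranged from -1.52 to 0.58, and the dimmer probe set of ALDH1L2 was at -0.31. PSPH and PSAT1 were named after their values were seen. ASNS, the asparagine synthetase and a classical ATF4 target, went from 3154 to 1051, a difference of -1.59. Regulators and markers of the amino acid response had a median of -1.69. Of 13, 8 were past 2-fold on the lower side (61.5%, background 7.49%) and none on the higher (background 7.78%). Of these 8, CHAC1 and NUPR1 had stretched signals of 5 and 11.15, below the floor, so the floor sets the size of their differences. ATF5, named outside the rule, alone lay above 0, at 0.41, with measured probe sets from -0.66 to 0.71. The transcript of ATF4 itself, named outside the rule, went from 7541 to 4374, a difference of -0.79. Among the 9 genes listed as eIF2 kinases and phosphatase subunits the median was -0.07. Past 2-fold, 1 was lower (11.1%, background 7.49%) and 2 were higher (22.2%, background 7.78%). The endoplasmic reticulum stress kinase EIF2AK3 (PERK) was 2.41-fold lower and EIF2AK4 (GCN2), the kinase activated by uncharged tRNA, was 2.05-fold higher. Each of these kinases had 1 measured probe set. EIF2S1, the phosphorylated subunit, was 2.03-fold higher. The part of the ATF4 transcript in the synthetase values was not tested.

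**Figure D5:**
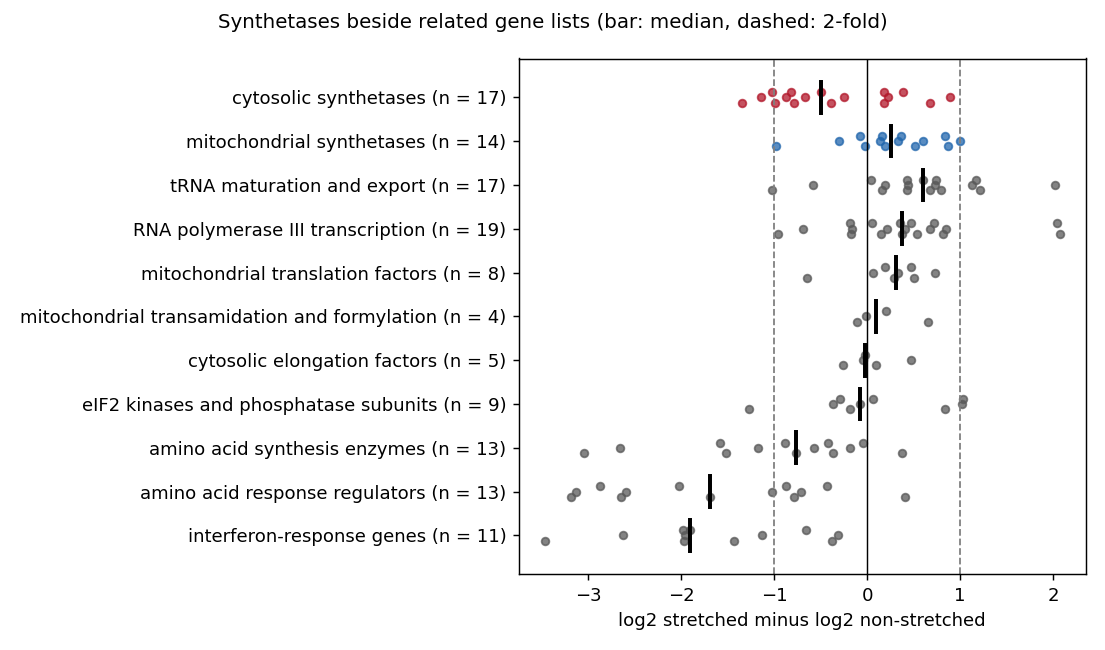
Log2 difference of each measured gene (points, brightest probe set) in the cytosolic and mitochondrial synthetases and in 9 related lists, with black bars at the medians and dashed lines at 2-fold. The cytosolic synthetases, at a median of -0.50, lie on the side of the amino acid synthesis enzymes (-0.76), and the tRNA maturation list, at 0.60, lies on the other side of 0.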

How the data were processed

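Total RNA (6 µg) was labelled as biotinylated cRNA and hybridised to Affymetrix arrays, per the labels' protocols. The deposited table holds 1 linear signal intensity for each of 54675 probe sets and 2 arrays. How they were summarised and scaled, and with which software, is not given in the sources used here. The number of arrays, 1 per condition, limits the precision.

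Gene names came from the platform's annotation, updated through gene IDs (RefSeq, GRCh38.p14). Control probe sets (62) were left out. Intensities were used as deposited, converted to log2 and floored at each array's 50th percentile. Calculations used Python 3.11.15, numpy 2.4.6, pandas 2.3.3 and statsmodels 0.14.6, and the steps from intensities to 2-fold calls were tested on simulated data, a pair of arrays with known changes in a seeded set of genes. That test bears on the calculation and not on variation between cultures.

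The members, lists and groupings were chosen with earlier results of these data known, and the promoter motifs after the values were seen. Named in full were members at or near 2-fold, the extremes of each compartment and members with probe sets of mixed sign. From other lists, at most 3 members with the largest difference were named, unless stated. Alternatives were other scalings (75th percentile, quantile, loess), floors, probe-set choices, and leaving out GARS1 and KARS1.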

Additional observations from a re-analysis of the deposited data

How the results depend on the processing

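No paired analysis was possible because each condition has 1 array. Of 31 members, 30 kept their sign in each alternative that gave them a value, and RARS2 did not. A value was had in all 8 alternatives for 22 members and in 7 for 9. Centring on the 75th percentile shifted every gene by -0.11. The cytosolic median (-0.50) was then -0.61 and the mitochondrial median (0.26) 0.15. The cytosolic median was -0.39 with probe sets averaged and also with every probe set counted (7 of 33 lower by 2-fold, background 6.48%). With _x_at and _s_at probe sets left out, EPRS1, GARS1, IARS1, LARS1 and VARS1 had no value, and the 12 other cytosolic members gave -0.32 and a gap between compartments of -0.58. With the floor at the 75th percentile, SARS2, MARS2, CARS2 and YARS2 had no value. Over the 10 others the mitochondrial median was 0.15, the gap was -0.65 and 0 mitochondrial genes were 2-fold higher (background 6.39%). Under all 3 other scalings (75th percentile, quantile, loess) the mitochondrial split of 1 higher and 0 lower became 0 higher and 1 lower. SARS1 joined the 2-fold lower cytosolic genes, which then numbered 4. The background moved too, in that order to 9.05%, 8.52% and 8.47% lower, from 7.49%. On the higher side it moved to 6.34%, 6.78% and 6.79%, from 7.78%. At 1.5-fold, chosen after seeing the data, 8 cytosolic genes were lower and 2 higher, and 1 mitochondrial gene was lower and 4 higher. The background at 1.5-fold was 16.7% lower and 17.9% higher. Leaving out GARS1 and KARS1 left the cytosolic median at -0.50. Dim signals limit those 4 mitochondrial genes.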
